A study of Rattus norvegicus with 8 samples.

Results

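Solute carriers are the membrane proteins that move glucose, amino acids, nucleosides, metal ions and other small solutes into cells and between their compartments, and their genes carry names that begin with Slc. Expression of these genes was examined in primary thymocytes of the rat, which are developing T lymphocytes, cultured for 6 hours in the presence of the steroid drug dexamethasone at 100 nM (Dex, 4 arrays) or in its absence (Control, 4 arrays). All cells came from adrenalectomized male Sprague-Dawley rats, and the thymi of 3 animals were pooled for each preparation. Both groups therefore lack the animals' own adrenal steroids, and the ages of the rats are not given in the sources used here. Cy3-labeled cRNA was hybridized to 1-color Agilent whole genome arrays of 60-base probes. The genes were selected on their measured signal as well as their names. A gene entered when its name began with Slc and a digit and one of its probes carried the scanner software's flag for a signal well above background on all 4 Control or all 4 Dex arrays. The probe with the highest mean signal stood for a gene with several such probes. Of 275 such gene names on the array, 198 met the rule, out of 24495 gene names that met the same signal condition on the whole array.

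As background, glucocorticoids act through a nuclear receptor and induce apoptosis of immature thymocytes, and reduced uptake of glucose and amino acids by thymocytes is among the long known effects of these hormones. Carriers fall into numbered families by sequence. The Slc2a proteins are the facilitative glucose transporters, members of Slc1a, Slc7a and Slc38a carry amino acids across the plasma membrane, and the Slc25a proteins are the carriers of the inner mitochondrial membrane. A messenger level is not a transport rate, which was not measured here. In cultured cells, fewer cells of a type and less RNA per cell cannot be told apart.

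The thymocyte label was checked against marker genes. All 10 of the double positive thymocyte markers found on the array were well above background on all 8 arrays, and the log2 of their summed signal lay between 18.38 and 18.66 in Control and between 18.35 and 18.74 in Dex. The summed signal of macrophage markers (8 found, all 8 well above background on every array) was 12.14 to 12.60 in Control and 12.03 to 13.07 in Dex. That of 4 erythroid markers, among them the anion exchanger Slc4a1, was 8.27 to 10.44 and 8.46 to 11.21, that of 5 stromal markers 9.43 to 10.11 and 9.01 to 10.48, and that of 3 B cell markers 6.21 to 7.04 and 6.21 to 7.23. No marker of any of these lists differed between the groups in limma (0 of 30 called after adjustment). By a form of the study's signal to noise statistic, recomputed here with other permutations, 3 passed, beside 6.79% of all probes. An unadjusted p below 0.05 was found for 5, in both directions. The thymocyte genes Ptcra and Rag1 were lower in Dex (-0.61 and -0.59, log2 differences of Dex minus Control) and Cd8b was higher (0.52). The macrophage gene C1qb was higher by 0.84 and the stromal gene Pdgfrb by 1.72, the last well above background on 2 Control and 3 Dex arrays. Of the defining markers, the stromal gene Dcn was not well above background on any array, and the B cell gene Ms4a1 was well above background on no Dex array. The part of these other cells in the results below was not tested.

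A difference was called when its limma p-value, adjusted by Benjamini-Hochberg over all 41012 probes, was below 0.05. Over all probes, 319 (0.778%) were called, and among the gene names that met the signal condition 1.06% were. Of the 198 solute carrier genes 2 were called. The divalent metal transporter gene Slc11a2 rose and the exchanger gene Slc24a5 fell. A count of 2 is near the share called among all genes, so it is not a result about solute carriers as a class. The count moved both ways with the processing. By limma 0 members were called with the replicate number or scan day as a fixed block and on the second scan day alone (23 to 30 with an unadjusted p below 0.05). Of all 41012 probes these settings called 81, 190 and 56. With the mean of a gene's probes 0 members were called (22), beside 232 of 35561 gene names. Without any one array other than Dex 3, 0 were called (18 to 26), beside 96 to 170 probes. With so few calls over the whole array, a count of 0 says little about the members. A fixed block for slide compares only Control 1 with Dex 3, so no count is given. With scaling to the 75th percentile neither Slc11a2 nor Slc24a5 was called, and 1 other member was, Slc2a5, which had met the rule through the Dex arrays alone. Larger counts came with larger shares of all probes. With normexp background correction 6 members were called, beside 2.23% of all probes. Without dim probes 6 were called, beside 1.97%. A random block for slide, whose estimated correlation was negative (-0.235), gave 10 calls, beside 4.48%. The signal to noise statistic passed 15 members, beside 6.79% of all probes. A plot of the signal on every array shows these genes beside the other members with large differences.

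**Figure D1:**
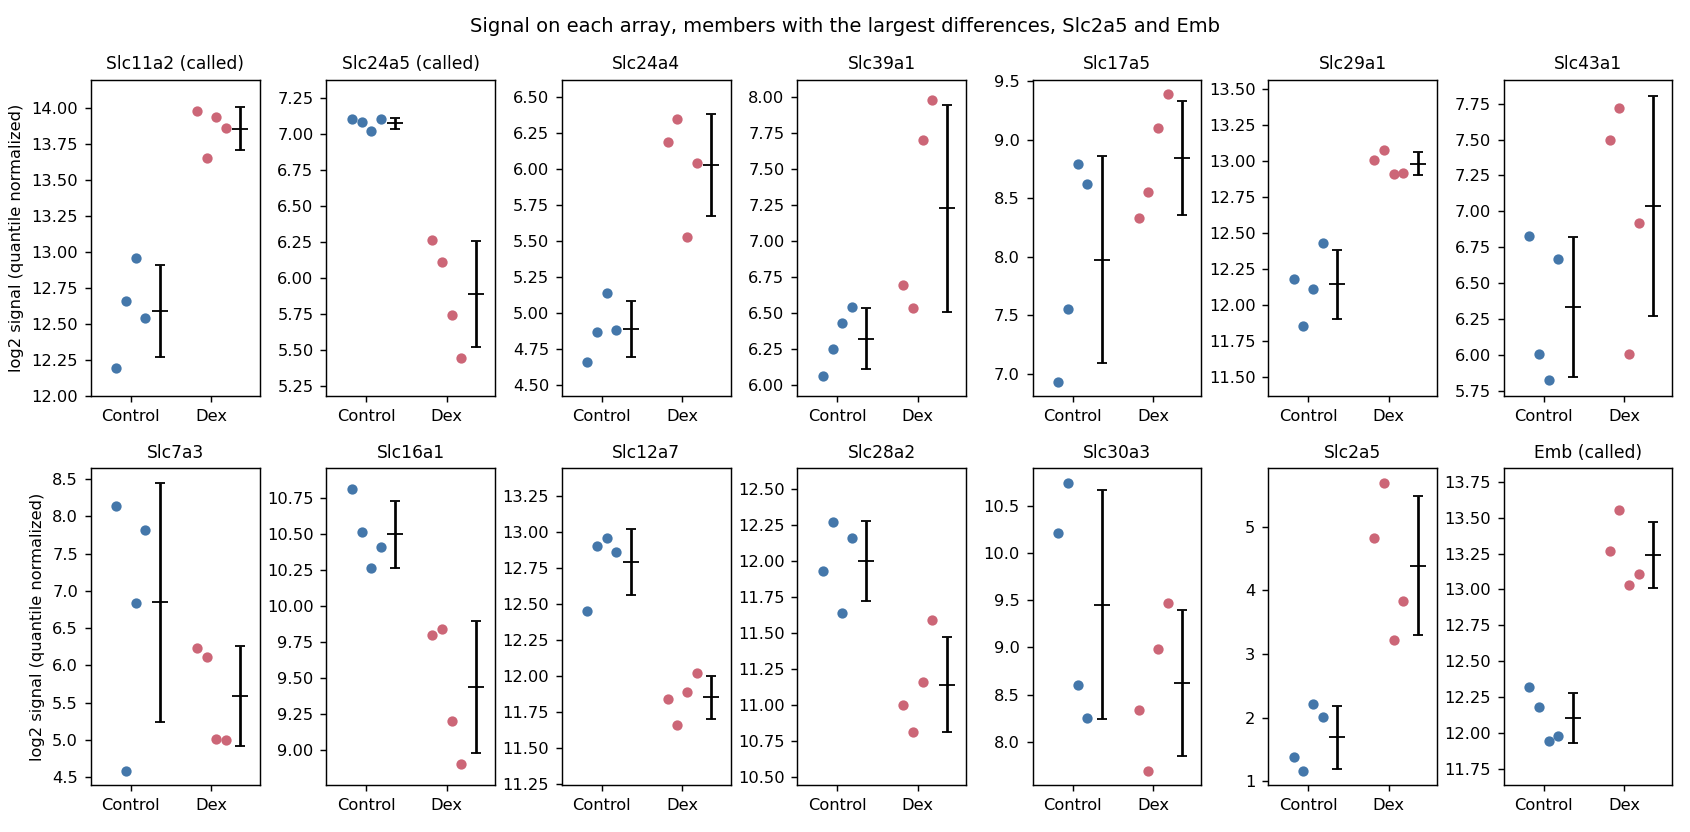
Quantile normalized log2 signal (vertical axis, a separate scale for each gene) on the 4 Control (blue) and 4 Dex (red) arrays, drawn from left to right as replicates 1 to 4, with the mean and SD beside each group in black. The called members Slc11a2 (Dex 13.65 to 13.98, Control 12.19 to 12.96) and Slc24a5 (Dex 5.44 to 6.26, Control 7.02 to 7.10) and the called partner gene Emb have no overlap between the groups, whereas Slc39a1, Slc17a5, Slc43a1, Slc7a3 and Slc30a3 differ in mean with wide, overlapping groups.

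Slc11a2 encodes a proton-coupled transporter that carries ferrous iron out of endosomes and, in the intestine, into the cell. On the Control arrays 1 to 4 its log2 signal was 12.19, 12.66, 12.96 and 12.54, and on the Dex arrays 1 to 4 it was 13.98, 13.65, 13.94 and 13.86. Every Dex array lay above every Control array, and the Dex values were the closer to each other (SD 0.15, against 0.32 in Control, n = 4 each). The mean was higher by 1.27 on the log2 scale, a 2.41-fold rise (SE 0.20, 95% interval 0.81 to 1.72, limma adjusted p = 0.0342). With the replicate number as a block the difference was again 1.27 and the adjusted p was 0.151. It was also above 0.05 without any one of the 8 arrays (0.0549 to 0.142, differences of 1.13 to 1.39). Within the slide that held a Control and a Dex array (Control 1 and Dex 3), the difference was 1.75. On the second scan day alone, with 3 arrays a group and each group on its own slide, it was 1.11 (adjusted p = 0.159). With scaling to the 75th percentile it was 1.30 (adjusted p = 0.137).

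The array read Slc11a2 through 2 probes, in different parts of its transcripts. Transcripts of this gene are known to end in alternative 3′ exons, one of which carries an iron-responsive element, and the array's annotation gives the second probe to an alternative splice variant of the C-terminal exon. The probe that carries the call lies at chr7:139171255-139171314 and the variant probe at chr7:139166558-139166617 (build rn3, as the scanner output gives them). The first 30 bases of each are shown, since they separate the readings, and which 3′ end each reads was not determined.
Slc11a2 called probe: cgacggtctctgactctatgcctacagtat
Slc11a2 variant probe: tgttagcaaatcccttagttcagaggtgaa

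On the variant probe, the log2 signal was 11.51, 11.67, 11.30 and 11.16 in Control and 11.99, 12.12, 11.86 and 11.57 in Dex. The groups overlapped, since the lowest Dex value lay below the highest Control value. The difference was 0.48 (SE 0.19, limma adjusted p = 0.412). The gap between the 2 probes within an array averaged 1.18 log2 units in Control (0.68 to 1.67) and 1.97 in Dex (1.52 to 2.29). The change in this gap of 0.79 was not past the threshold in an exact two-sided permutation test (p = 0.0571, smallest possible p 0.0286), which was chosen after the values had been seen.

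The sequence before the start of Slc11a2 was searched for the letters of the glucocorticoid receptor half-site, AGAACA or its reverse complement TGTTCT (so both strands), because this is the called rise. RefSeq gives 2 starts, and the 250 bases before each are shown from the minus strand of GRCr8, at chr7:133417789-133418038 and, upstream of it, at chr7:133418940-133419189. Capitals would mark a match, and there was none in either window.
Slc11a2 start 1: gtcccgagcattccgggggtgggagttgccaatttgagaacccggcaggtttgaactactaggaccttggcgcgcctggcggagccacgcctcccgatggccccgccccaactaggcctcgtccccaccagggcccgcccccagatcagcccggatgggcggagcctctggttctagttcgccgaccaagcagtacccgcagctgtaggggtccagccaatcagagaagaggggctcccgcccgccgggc
Slc11a2 start 2: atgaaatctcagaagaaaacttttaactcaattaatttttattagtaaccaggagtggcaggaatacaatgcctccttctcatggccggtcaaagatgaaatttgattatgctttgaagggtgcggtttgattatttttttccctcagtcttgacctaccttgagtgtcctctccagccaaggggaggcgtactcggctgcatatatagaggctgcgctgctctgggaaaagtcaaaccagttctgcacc

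Of all 33469 RefSeq windows of this length, 5865 (17.5%) held the half-site and 4 held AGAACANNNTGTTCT, the full palindrome. Of the 163 windows that matched 158 of the solute carrier genes by symbol, 24 (14.7%) held the half-site and 0 the palindrome. The window of the nucleoside carrier Slc28a2 was one of those 24, with matches 244 and 16 bases before the start. These letters are a description of the windows and not a measure of receptor binding.

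Slc24a5 is a member of the potassium-dependent sodium/calcium exchangers, known from the pigment organelle of melanocytes. Its single probe lies at chr3:112292494-112292553 (rn3), and in the current RefSeq annotation the gene's end overlaps the neighboring Myef2. The log2 signal was 7.10, 7.08, 7.02 and 7.10 in Control and 6.26, 6.11, 5.74 and 5.44 in Dex. All Dex arrays lay below all Control arrays, and the Control values were nearly equal (SD 0.04, against 0.37 in Dex, n = 4 each). It fell by 1.18 on the log2 scale (SE 0.20, limma adjusted p = 0.0487). With normexp background correction the difference was -0.62 (adjusted p = 0.0102). With the replicate block the adjusted p was 0.158, with scaling to the 75th percentile it was 0.094, and without any one array it was 0.0672 to 0.187.

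**Figure D2:**
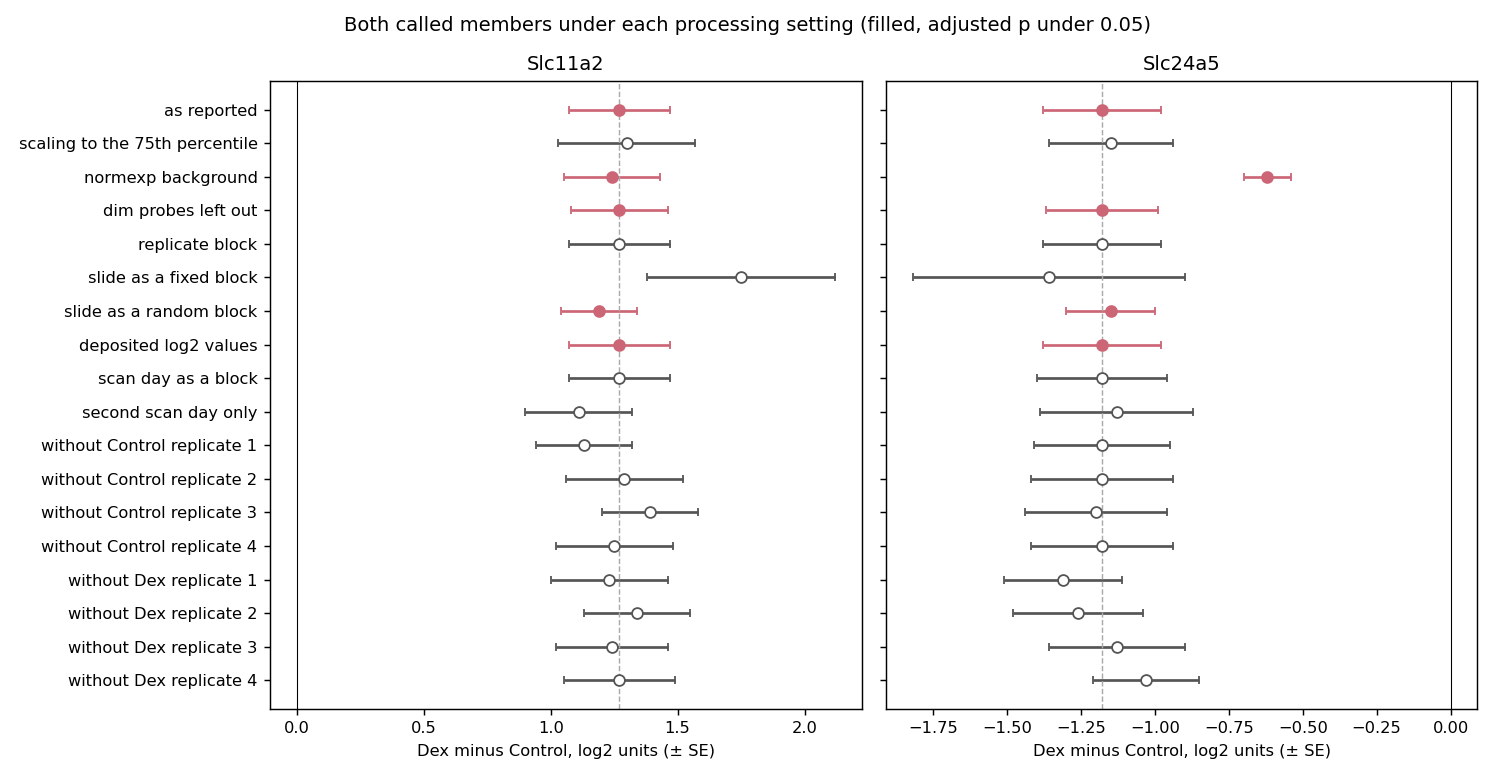
Log2 difference of Dex minus Control (horizontal axis, with SE) for Slc11a2 (left) and Slc24a5 (right) under each processing setting (rows), filled red where the limma adjusted p was below 0.05 and open where it was not. The dashed line is the reported value, 1.27 or -1.18, and every setting keeps its direction, while the call is lost in each row that leaves out 1 array.

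The related exchanger Slc24a4, a plasma membrane protein of the same family, was not called. Its log2 signal was 4.66, 4.87, 5.14 and 4.88 in Control and 6.19, 6.35, 5.53 and 6.04 in Dex. These groups did not overlap either, with a difference of 1.14 (SE 0.21, adjusted p = 0.0684), in the opposite direction to that of Slc24a5. Without Dex 3 it was called (difference 1.30, adjusted p = 0.0388), and without any other array it was not. With normexp background correction the difference was 0.42 (adjusted p = 0.0367), and within the slide of Control 1 and Dex 3 it was 0.87. The third member of the family on all 8 arrays had a difference of 0.11.

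Among the 166 members well above background on all 8 arrays, 25 (15.1%) had an unadjusted p below 0.05, beside 13.1% of all 20398 gene names of this kind. Of these 25, 10 were higher and 15 lower in Dex, beside 6.11% and 6.97% of all such gene names. All Dex arrays lay above all Control arrays for 7 members (4.22%, against 6.04% of gene names) and below for 11 (6.63%, against 7.14%). The median difference was -0.01 for the members and -0.02 for all gene names, and 83.7% and 82.2% differed by less than 0.5 log2 units. By these counts the solute carriers lay close to the other genes. Only 5 members differed by 1 log2 unit or more in mean, namely Slc11a2, Slc24a4, Slc24a5, Slc16a1 and Slc7a3. A plot of the differences by class shows Slc11a2 at its upper edge and Slc24a5 next to the uncalled Slc7a3 at its lower edge.

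**Figure D3:**
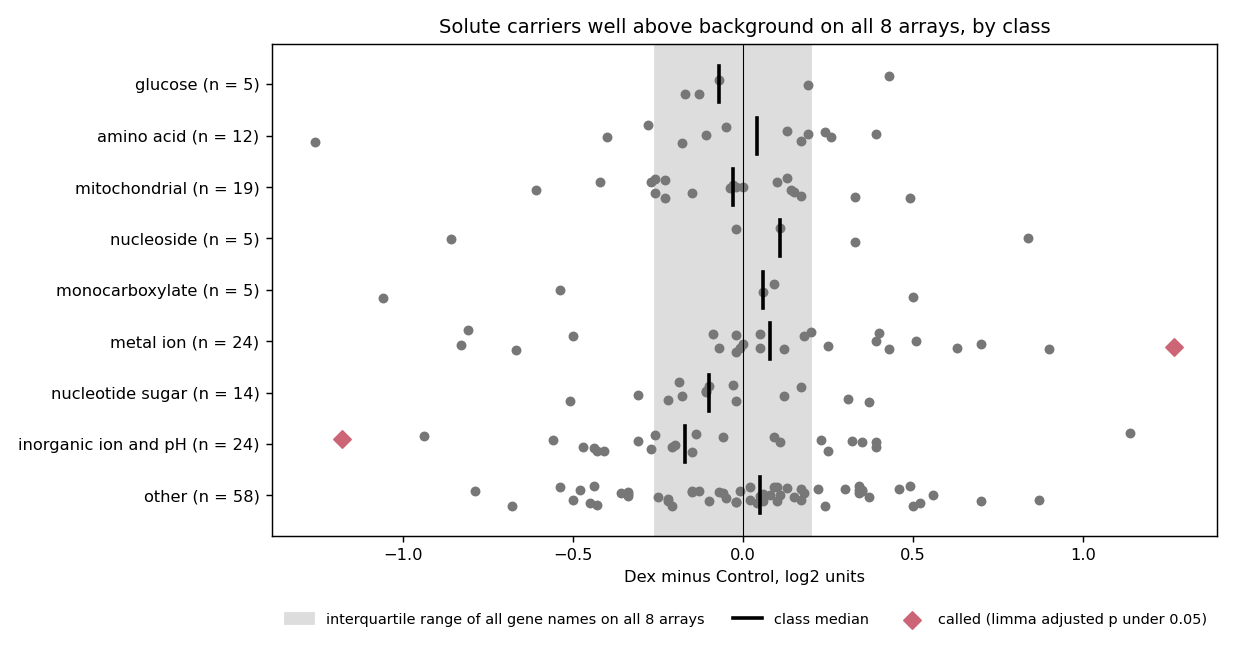
Difference of Dex minus Control (horizontal axis, log2 units) for each of the 166 members well above background on all 8 arrays, in rows by transported class; the vertical spread of points has no meaning. Black bars are class medians, which lie between -0.17 and 0.11, the gray band from -0.26 to 0.20 is the interquartile range of all gene names on all 8 arrays, and red diamonds are the called genes.

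In the glucose family, 8 members met the rule, none was called, and the 5 on all 8 arrays had a median difference of -0.07 (lowest -0.17, highest 0.43, 1 with an unadjusted p below 0.05). By the signal to noise statistic 1 of the 8 passed, Slc2a5, and the selection had in part fixed its direction, as described after the other members. Slc2a1, the widely expressed basal glucose transporter, had a log2 signal of 9.33, 9.33, 9.31 and 9.22 in Control and 10.22, 9.49, 9.21 and 9.04 in Dex. The Dex arrays lay on both sides of Control, with Dex 1 standing high, and the difference of 0.19 (SE 0.26, adjusted p = 0.847) was -0.05 without that array. Slc2a3, a high-affinity glucose transporter of lymphocytes and neurons, gave 7.31, 7.44, 7.55 and 7.26 in Control and 6.83, 6.38, 7.98 and 7.85 in Dex. Its Dex arrays 1 and 2 were below and 3 and 4 above every Control array, with a mean difference of -0.13 (95% interval -0.96 to 0.70). The muscle and fat transporter Slc2a4, named for its unadjusted p after the values had been seen, differed by 0.43 (adjusted p = 0.430). The lowest in the family was Slc2a6, at -0.17 (adjusted p = 0.879). The sodium-coupled sugar transporter family Slc5a had 4 members on all 8 arrays, none called, with a median of -0.04.

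The fructose transporter Slc2a5 was the single member that met the rule through the Dex arrays alone, so its difference between the groups is in part a product of the selection. Its log2 signal was 1.39, 1.17, 2.21 and 2.01 on the Control arrays, where it was not well above background on any, and 4.82, 5.69, 3.22 and 3.83 on the Dex arrays. All Dex values were higher, and they spread over more than 2 log2 units. Set against the weakest signal well above background on each Control array (mean 2.76, above its measured mean of 1.69), the Dex mean of 4.39 was at least 3.09-fold higher. The limma adjusted p of 0.0787 belongs to the measured difference of 2.70 log2 units and not to this bound. With normexp background correction, whose offset of 50 draws weak signals together, the measured difference became 0.42. This is below the bound of 1.63 log2 units.

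In the amino acid families, 14 members met the rule and 12 did so on all 8 arrays. None was called, by limma or by the signal to noise statistic, and none of the 12 had an unadjusted p below 0.05 on the probe that stood for the gene (median difference 0.04, lowest -1.26, highest 0.39). A second probe of the cationic amino acid transporter Slc7a1 differed by 0.64 without overlap of the groups (unadjusted p below 0.05, limma adjusted p = 0.133), while its first probe differed by 0.17 with overlap. Another probe of the Slc38a family member Slc38a6 had an unadjusted p below 0.05 in the other direction (-0.51, limma adjusted p = 0.405), beside -0.28 on its first probe. The glutamine carrier Slc1a5 had a log2 signal of 12.88, 13.08, 12.88 and 12.97 in Control and 13.02, 12.64, 12.73 and 12.69 in Dex, a difference of -0.18 (95% interval -0.53 to 0.17). The system A carriers Slc38a2 and Slc38a1 differed by -0.40 (adjusted p = 0.502) and 0.19 (adjusted p = 0.826). For Slc1a5 the interval of the unblocked fit, which measures the spread between these arrays only, leaves out a change of 1 log2 unit in either direction. Slc1a7, a glutamate transporter, had the highest mean difference of the 14 (0.46, adjusted p = 0.708), and it met the rule through the Control arrays alone.

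For 3 amino acid carriers on all 8 arrays the Control arrays spread widely, and Control 2 was the lowest. Slc7a3, a cationic amino acid transporter, gave 8.14, 4.59, 6.84 and 7.82 in Control and 6.23, 6.11, 5.01 and 5.00 in Dex. Slc7a5, the light chain of a large neutral amino acid exchanger, gave 7.55, 5.95, 8.11 and 8.38 in Control and 7.95, 7.34, 7.67 and 7.55 in Dex. Control 2 was the lowest of the 8 arrays for both genes. The serine and alanine carrier Slc1a4 was at 3.00 on Control 2 and at 5.34 to 6.27 on the other Control arrays. These were the 3 members, of 166 on all 8 arrays, whose Control 2 signal was over 1 log2 unit below the mean of the other Control arrays, while 2 (Slc22a3 and Slc30a3) were as far above it. Control 2 was also the lowest of the 8 arrays for Slc7a1 (8.04 against 8.68 to 9.15 on the other Control arrays) and Slc38a1 (7.86 against 8.11 to 8.72). Other carriers of this class did not share this. The system A carrier Slc38a2 was highest of the 8 arrays on Control 2 (12.70), and on the cystine exchanger Slc7a11 that array was the highest of the Control group (7.89). Slc38a4, which met the rule through the Control arrays alone, also spread widely there (3.99, 4.74, 6.59 and 6.05), with Control 1 the lowest.

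Control 2 was also the lowest of the 8 arrays for several of the partner genes. Asparagine synthetase (Asns) was at 9.48 on it and at 11.47 to 11.88 on the other Control arrays. The glutathione-degrading enzyme Chac1 was at 5.77 against 8.82 to 9.25, and the stress transcription factor Ddit3 at 9.66 against 10.99 to 11.30. These 3 were the partner genes, of 29 on the array, with a gap of over 1 log2 unit. The transcription factor Atf4 was at 13.14 against 13.60 to 13.72. The exchanger's heavy chain Slc3a2 was at 12.01 on Control 2 and 12.22 to 12.83 on the other Control arrays, and its group difference was 0.35 (adjusted p = 0.622), or 0.22 without Control 2. Without this array the difference of Slc7a3 was -2.01 (SE 0.46, adjusted p = 0.256) in place of -1.26 (adjusted p = 0.640), that of Slc7a5 -0.39 in place of 0.13, that of Slc1a4 -0.30 in place of 0.39, and that of Asns -0.99 (adjusted p = 0.243) in place of -0.44. None was called with it or without it. These genes were singled out after their values had been seen.

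**Figure D4:**
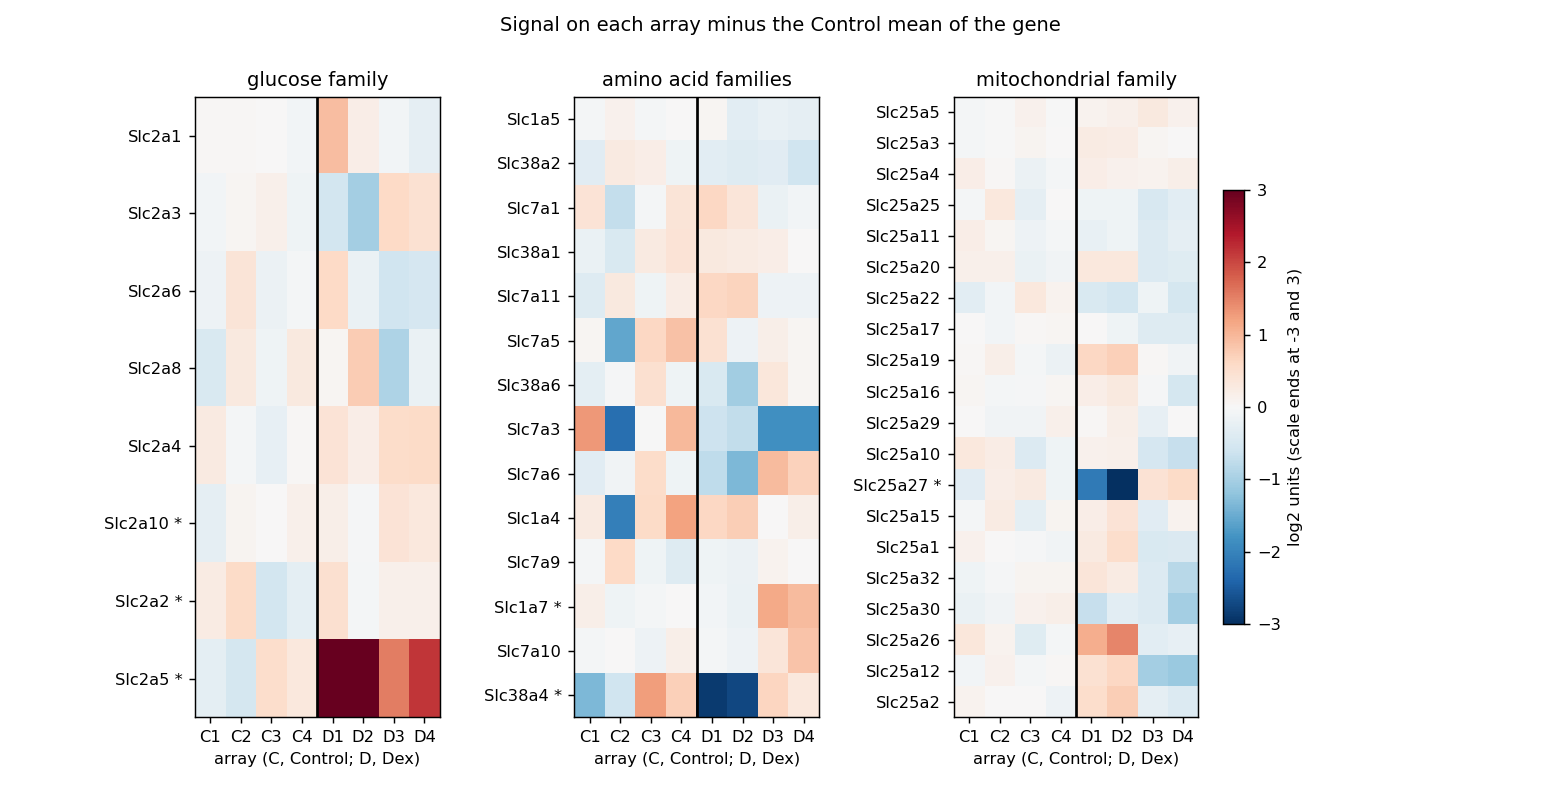
Log2 signal on each array minus the gene's Control mean (color, from -3 in blue to 3 in red) for every member of the glucose, amino acid and mitochondrial families, with genes in rows by falling mean signal and arrays in columns. An asterisk marks members not well above background on all 8 arrays; Control 2 is low for Slc7a3, Slc1a4 and Slc7a5, Dex 1 and Dex 2 part from Dex 3 and Dex 4 for many genes, and the first 3 mitochondrial rows are nearly even.

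The mitochondrial carriers were the most even of the 3 groups, with a median SD of 0.150 in Control and 0.323 in Dex, against 0.218 and 0.538 for the glucose family and 0.397 and 0.366 for the amino acid families. Of 20 that met the rule, 19 did so on all 8 arrays, none was called, and their median difference was -0.03 (lowest -0.61, highest 0.49). The adenine nucleotide translocators Slc25a4 and Slc25a5, which exchange ADP and ATP, differed by 0.14 (95% interval -0.19 to 0.47) and 0.17 (-0.14 to 0.48), and since these genes are close copies their probes may share signal. The phosphate carrier Slc25a3 differed by 0.13 (-0.19 to 0.45). For these 3 the intervals of the unblocked fit leave out a change of 0.5 log2 units in either direction. They measure the spread between these arrays only. The carnitine carrier Slc25a20 was at 10.64, 10.65, 10.29 and 10.39 in Control and at 10.81, 10.80, 10.08 and 10.12 in Dex, a difference of -0.04 (SE 0.23) whose sign turned when the array set or the scaling was changed.

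On some genes of this family the Dex arrays disagreed among themselves. Slc25a27, an uncoupling protein of the nervous system, gave 7.80 to 8.40 in Control and 6.02, 4.25, 8.58 and 8.71 in Dex. Dex 1 and 2 lay far below Control and Dex 3 and 4 above it, so that the mean difference of -1.25 had an SE of 0.94 (adjusted p = 0.716). This gene met the rule through the Control arrays alone, so a lower mean in Dex is in part a product of the selection. Slc25a26, the carrier of S-adenosylmethionine, gave 7.31, 7.69, 5.91 and 5.99 in Dex and 5.86 to 6.56 in Control, with Dex 1 and 2 above the Control range and Dex 3 and 4 within it (difference 0.49, adjusted p = 0.752). The member of the 19 with an unadjusted p below 0.05, Slc25a30, was lower on every Dex array (difference -0.61, adjusted p = 0.318), while its second probe differed by 0.17 with overlap (adjusted p = 0.891). Slc25a30 was also the 1 member of the family that passed the signal to noise statistic, and it is named here after its value had been seen.

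The nucleoside carriers gave differences in both directions. Slc29a1, the equilibrative transporter that also imports many nucleoside drugs, had a log2 signal of 12.18, 11.85, 12.11 and 12.43 in Control and 13.01, 13.08, 12.91 and 12.92 in Dex. Every Dex array lay above every Control array, with a difference of 0.84 (SE 0.17, adjusted p = 0.0820). Slc28a2, a sodium-coupled purine nucleoside carrier, gave 11.93, 12.27, 11.64 and 12.16 in Control and 11.00, 10.81, 11.16 and 11.59 in Dex. Here every Dex array lay below every Control array, with a difference of -0.86 (SE 0.22, adjusted p = 0.186). Neither was called. The second probe of Slc28a2 ran the other way (0.34, adjusted p = 0.574), and the gap between its probes narrowed in Dex by 1.19 log2 units. The exact two-sided permutation test gave p = 0.0286, the smallest that the 70 assignments without pairing can give. In all, 6 such gaps were compared in Slc11a2, Slc12a7 and Slc28a2, after the values had been seen. None passed after Benjamini-Hochberg adjustment over the 6 (adjusted p = 0.0856 for that of Slc28a2 and for that of Slc11a2). A gap at the smallest p could not pass this adjustment alone, so the outcome decides little. The Slc12a7 gaps also share its brightest probe.

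Slc12a7, a potassium-chloride cotransporter that takes part in volume regulation, was read by 5 probes. On the brightest probe the log2 signal was 12.45, 12.90, 12.96 and 12.86 in Control and 11.84, 11.66, 11.89 and 12.02 in Dex, without overlap (difference -0.94, SE 0.17, adjusted p = 0.0616). On the others the difference was -1.59, -0.67, 0.17 and 0.68, and none of the 5 was called. The gap to the probe at 0.68 narrowed in Dex by 1.62 log2 units (exact two-sided permutation test, p = 0.0286, adjusted p = 0.0856), and the gaps to the other 3 gave p = 0.0571 to 0.4286 in this exact test. Of the 37 members with more than 1 probe that met the rule, 13 had probes that differed in sign. The median gap between a gene's highest and lowest probe was 0.22 log2 units, and 3 genes, Slc12a7, Slc28a2 and Slc8a1, had a gap of 1 or more.

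**Figure D5:**
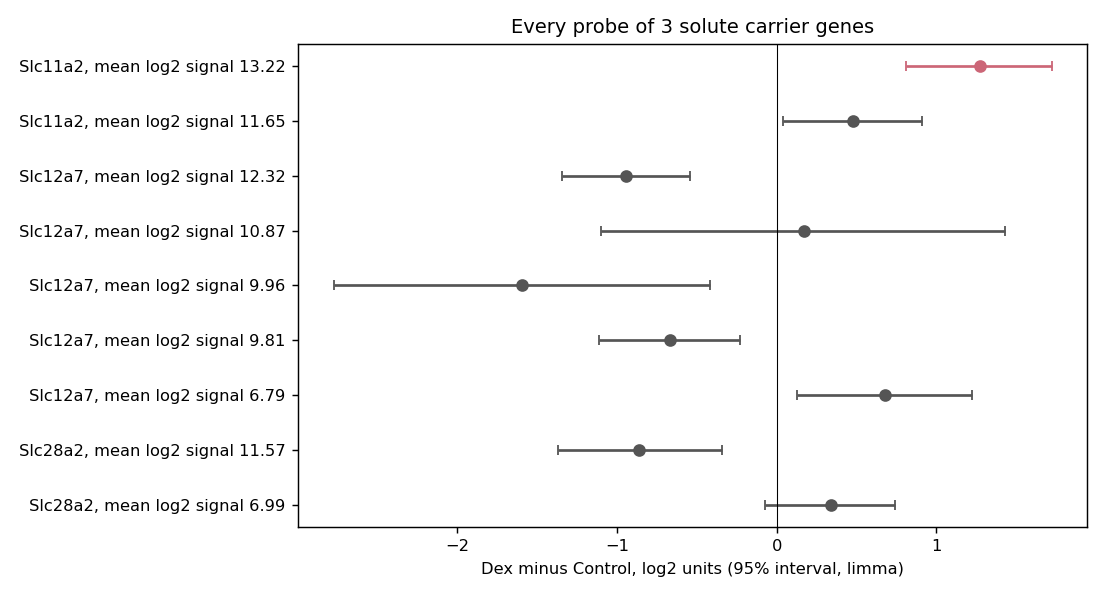
Difference of Dex minus Control (horizontal axis, log2 units, with the 95% interval of limma) for each probe of Slc11a2, Slc12a7 and Slc28a2, in rows by falling mean signal, with the called probe in red. The probes of Slc11a2 share a direction (1.27 and 0.48), while those of Slc12a7 run from -1.59 to 0.68 and those of Slc28a2 are -0.86 and 0.34.

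Among the monocarboxylate transporters, Slc16a1, which carries lactate and pyruvate, had a log2 signal of 10.81, 10.51, 10.26 and 10.41 in Control and 9.80, 9.84, 9.20 and 8.90 in Dex. All Dex arrays were lower, with a difference of -1.06 (SE 0.26, adjusted p = 0.144), which did not pass the threshold. Within the slide of Control 1 and Dex 3 it was -1.61. The other 4 members of its family on all 8 arrays ranged from -0.54 to 0.50. Embigin (Emb), a membrane glycoprotein that escorts transporters of this family to the cell surface, was the called gene of the transport partner list. It gave 12.32, 12.18, 11.95 and 11.98 in Control and 13.27, 13.55, 13.03 and 13.11 in Dex. It rose by 1.13 (SE 0.18, adjusted p = 0.0353) without overlap, and its adjusted p was 0.119 with the replicate block and 0.0556 to 0.149 without any one array. Within the slide of Control 1 and Dex 3 its difference was 0.71. Basigin (Bsg), the other escort protein, differed by -0.05.

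Of the metal ion carriers, 24 were on all 8 arrays, with a median difference of 0.08, and 3 had an unadjusted p below 0.05 in each direction. Those 6 are 25% of the class, beside 13.1% of all gene names on all 8 arrays. The share was also 25% for the inorganic ion and pH carriers, and it ran from 0% to 40% over the classes. Of the 6, those with higher means were Slc11a2, the zinc importer Slc39a1 (0.90, adjusted p = 0.399) and the magnesium transporter Slc41a1 (0.63, adjusted p = 0.422). Those with lower means, all of the zinc transporter family Slc39a, were Slc39a14 (-0.81), Slc39a10 (-0.67) and Slc39a13 (-0.50), each without overlap of the groups and with an adjusted p of 0.254 to 0.403. The second probe of Slc39a13 differed by 0.21 with overlap (adjusted p = 0.807). Of the 11 Slc39a members, 6 had a positive and 5 a negative difference (median 0.18). Slc30a3, a zinc transporter of vesicles, differed by -0.83 with Control arrays that ranged from 8.26 to 10.74 (adjusted p = 0.716). The iron exporter Slc40a1 was near background, at 3.80 and 3.84 in the groups. Of the iron genes in the partner list, the ferritin light chain Ftl1 differed by 0.95 on its brightest probe (adjusted p = 0.0580). Of its 5 probes 3 were called (1.02 to 1.10, limma adjusted p = 0.0303 to 0.0494). Whether these calls hold with a block or without an array is not given here. Ferritin light chain has many close copies in the genome, so these probes may read more than 1 locus. The transferrin receptor Tfrc differed by -0.43 (adjusted p = 0.491) and the ferritin heavy chain Fth1 by -0.16.

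Of the 29 partner genes on the array 1 was called, Emb, beside 1.06% of all gene names that met the signal condition. By the signal to noise statistic 5 passed, beside 6.79% of all probes. An unadjusted p below 0.05 was found for 5, beside 13.1% of gene names on all 8 arrays. Hexokinase 2 (Hk2), which traps glucose after import, differed by 0.93 without overlap (adjusted p = 0.144). The zinc-binding metallothionein Mt1a differed by 0.88 (adjusted p = 0.107) and the mitochondrial fatty acid gatekeeper Cpt1a by -0.63 (adjusted p = 0.198), also without overlap. The sodium pump subunits Atp1b1 and Atp1b3 and the outer membrane channels Vdac1, Vdac2 and Vdac3 differed by -0.33 to 0.03, all with overlap.

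The remaining members named for the size of their difference were not called and had overlapping groups. The lysosomal sialic acid exporter Slc17a5 gave 6.93, 7.55, 8.79 and 8.62 in Control and 8.33, 8.55, 9.10 and 9.39 in Dex (difference 0.87, adjusted p = 0.570). The amino acid transporter Slc43a1 gave 6.83, 6.01, 5.83 and 6.67 in Control and 7.50, 7.72, 6.01 and 6.92 in Dex (0.70, adjusted p = 0.623).

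The Dex arrays varied more than the Control arrays. Over the 166 members the median SD was 0.210 in Control and 0.435 in Dex (n = 4 each), beside 0.206 and 0.386 for all gene names on all 8 arrays. The same arrays decided which members were measured in both groups. There were 31 members well above background on all 4 Control arrays and not on all Dex arrays. All 31 missed on Dex 2, 13 of them also on Dex 1, and none on Dex 3 or Dex 4. On the whole array too, Dex 1 and Dex 2 had the fewest probes well above background (26471 and 24908, against 28665 to 34472 on the other arrays). The mean log2 signals of these 31 were at most 7.51. At the edge of the rule, the members with the lowest means over the 8 arrays were Slc2a5, Slc13a3 and Slc10a2 (3.04, 3.36 and 3.47), and the names with the highest means among those that did not meet it were Slc21a4, Slc34a3 and Slc17a1 (4.61, 4.43 and 4.13). These are readings of single probes and give no order of transcript levels.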

How the data were processed

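Cy3-labeled cRNA made from total RNA was hybridized to 1-color Agilent whole rat genome arrays. The authors deposited the scanner output, with a processed intensity per spot that is background-subtracted (Feature Extraction version 9.5.3.1, probe positions in build rn3) and not normalized between arrays. They also deposited log2 values, quantile normalized and summarized per probe by median polish. These steps were recomputed here without control and outlier-flagged spots, which left 16 missing values among 41012 probes; the correlation with the deposited values was at least 0.999999. No spot was saturated. Every value column of the series table belonged to a sample (0 unused). The flag for signal well above background was set for 24908 to 34472 probes an array. Precision is limited by having 4 arrays a group.

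limma (version 3.58.1, R version 4.3.3) was fitted to all 8 arrays without a block, two-sided, with p-values adjusted over all probes by Benjamini-Hochberg and a threshold of 0.05. The procedure was checked on simulated data. The members and lists were chosen with earlier results of these data known. Of the 198 members, 137 were matched to RefSeq by accession, 59 by symbol and 2 not at all. The accessions give the current names Slco1a6 for Slc21a13, Slc22a25 for Slc22a9, Slc9c1 for Slc9a10, Nherf1 for Slc9a3r1 and Nfkbie for the probe labeled Slc35b2. Slc9a3r1 and Slc4a1ap are named after carriers and do not encode one. Brp44, Mpc1 and Mpc2 were not found under these names. Probe signals were ranked only to choose members to name and to show the edge of the selection rule, and such ranks are not levels of transcripts.

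The text names every called member (at most 25), the 5 largest rises and 5 largest falls in mean among uncalled members on all 8 arrays, the 8 members of highest signal, the member with the largest rise and fall in each of the 3 main families, 11 listed carriers, and called partner genes; some genes that these rules and lists name are not reported here. Groups and replicate numbers come from the labels; the paper states 3 biological replicates and 4 arrays a group were used here. Nothing in the labels says that all 4 are separate cultures, so p-values measure the spread between these arrays, which may be technical. The arrays lay on 3 slides: Control 1 with Dex 3, the other Control arrays, and the other Dex arrays. Control 1 and Dex 3 were scanned on another day. Outside this pair, slide and treatment cannot be told apart, and this holds for the second scan day alone. A fixed block for slide leaves only Control 1 and Dex 3 to compare. Deviations of same-numbered arrays from their group means correlated at 0.397, 0.129, 0.550 and 0.184 across probes, all above 0.1. The blocked fit is therefore given beside the calls of Slc11a2, Slc24a5 and Emb. Some unlike numbers correlated as highly (Control 1 with Dex 2, 0.401). Alternatives were other scaling, normexp background correction (offset 50), a filter on dim probes, blocks for replicate, slide and scan day, the deposited values, the methods' signal to noise statistic (nominal one-tailed p of 0.01 against the values of all probes under all 70 assignments pooled, in place of the methods' random sample and probe permutations, and absolute fold change of at least 1.2), other probe and detection rules, and leaving out each array.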

Additional observations from a re-analysis of the deposited data

Results flagged for a closer look

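Each group of 4 arrays was examined for an array whose gap to its nearest neighbor, as a share of the group's range, exceeded Dixon's 95% limit. Of 137 groups of 4 (69 genes named in the text, Control and Dex), 3 held one, and chance alone gives about 1 such group in 20. Control 2 was low for Chac1 (5.77 against 8.82 to 9.25 on the other Control arrays, share 0.875) and for Tfrc (11.56 against 11.91 to 11.95, share 0.887). Dex 1 was high for the bile acid transporter Slc10a2 (4.26 against 3.20 to 3.25 on the other Dex arrays, share 0.95), which met the selection rule through the Control arrays alone.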

How the results depend on the processing

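The 2 called members, 1 higher and 1 lower, were the same genes with the deposited log2 values, with any probe of a gene counted and among members on all 8 arrays. With the replicate block 0 members were called by limma (30 with an unadjusted p under 0.05). The same held with scan day as a block (24), the second scan day only (23) and the mean of the gene's probes (22). In these settings the share called over the whole array was smaller too. The scan day settings were added after seeing the data. Scaling to the 75th percentile ended both calls and gave 1 other, which was higher (Slc2a5), and 0 lower. normexp gave 6 calls (3 higher and 3 lower), leaving out dim probes 6 (4 and 2), slide as a random block 10 (5 and 5) and the methods' signal to noise statistic 15 (6 and 9). Leaving out each array in turn gave 0 to 2 calls (0 to 2 higher, 0 lower), with Slc24a4 and Slc2a5 (selected through the Dex arrays alone) called without Dex 3 and 0 called without each of the other 7 arrays (18 to 26 members with an unadjusted p under 0.05).

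Of the partner genes, 1 was called with the deposited values, 3 with normexp, 2 without dim probes and 4 with slide as a random block. The signal to noise statistic passed 5, beside 6.79% of all probes. By limma 0 were called with scaling to the 75th percentile, the replicate block, scan day as a block and the second scan day only. In these settings 5 to 6 had an unadjusted p under 0.05. The same held without any one array (0 calls, 5 to 9 such genes).

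The family medians ranged from -0.16 to 0.21 (glucose) and from -0.14 to 0.11 (amino acid) without one array. Signs turned for uncalled genes only. With slide as a fixed block, only Control 1 and Dex 3 are compared. Dex 3 minus Control 1 was -0.81 (Slc43a1), -0.11 (Slc25a4), -0.65 (Slc25a26), 0.78 (Slc25a27), -0.12 (Slc2a1) and 0.67 (Slc2a3). These signs rest on 1 array a group and do not show an effect of the processing. Slc25a20 was at 0.14 on the second scan day, at 0.03 with scaling to the 75th percentile and at 0.05 with slide as a random block. Without one array Slc2a1 ranged from -0.05 to 0.34, Slc2a3 from -0.37 to 0.16, Slc7a5 from -0.39 to 0.42, and Slc1a4 was at -0.30 without Control 2, while Slc25a20 ranged from -0.16 to 0.09. The causes were not tested. Near background, a difference is less certain.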
